A study of Mus musculus with 2 samples.

Results

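The interleukin-1 (IL-1) system was followed through 8 genes listed by name, Il1a, Il1b, Il1rn, Il1r2, Il1rap, Il18, Casp1 and Nlrp3, out of 32285 genes measured. The cells were bone marrow cells of female C57BL/6 mice aged 10 weeks. A culture of 4 days in a medium holding IL-6 (50 ng/mL) together with GM-CSF (50 ng/mL) gives myeloid-derived suppressor cells (MDSC). One culture also received 1.5 µM dabrafenib (DAB), a BRAF kinase inhibitor used against melanoma, and the other an equal volume of its solvent DMSO, so both conditions share the strain, the tissue and the cytokines. Each condition was 1 single-cell library, the sources used here do not give the number of mice behind it, and no difference below has a replicate or a test. After filtering, the DMSO library held 9032 cells and 92068417 unique molecular identifiers (UMIs, counted RNA molecules), and the DAB library 10476 cells and 139655908 UMIs. The median cell had 7495 UMIs in DMSO and 9353.5 in DAB. Before filtering, 152 cell barcodes occurred in both libraries.

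Il1a and Il1b encode the cytokines IL-1α and IL-1β, which bind the same signalling receptor together with the accessory chain encoded by Il1rap. Il1rn encodes the IL-1 receptor antagonist, which occupies that receptor without signalling, and Il1r2 encodes a decoy receptor that binds the cytokines and does not signal. Nlrp3 is the sensor of an inflammasome that activates the protease caspase-1, the product of Casp1, which cuts the precursors of IL-1β and of the related cytokine IL-18, the product of Il18. In bone marrow cultures these genes are known from neutrophils, monocytes, macrophages and dendritic cells.

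Cells were clustered without the 8 genes and named from marker genes. Of 23 clusters, 14 carried a name and 9, with 29.99% of DMSO and 29.0% of DAB cells, stayed unnamed. The granulocyte classes were granulocyte progenitor-like cells (379 DMSO and 396 DAB cells), intermediate granulocyte-like cells (1485 and 1040), mature PMN-like cells, that is neutrophils (1808 and 2296), and chemokine-high granulocyte-like cells (496 and 1686). The other myeloid classes were immature monocyte-like cells (1169 and 934), mature monocyte-like cells led by class II genes and Ccl17 (487 and 560), activated dendritic cell-like cells (156 and 107) and macrophage-like cells (154 and 144). B cell-like cells (136 and 187) served as a gauge of free RNA, since they should lack most myeloid transcripts. Basophil or mast cell-like cells (53 and 87) were too few to compare.

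The 8 genes lie on 5 chromosomes of the mouse build GRCm38, and all are protein coding. Il1b (chr2:129364570-129371139, minus strand) lies 54597 bases beyond Il1a (chr2:129299610-129309972, minus strand), and Il1rn (chr2:24336853-24351494, plus strand) is elsewhere on the same chromosome. Il1r2 is at chr1:40074079-40125231, Il1rap at chr16:26581704-26730117, Il18 at chr9:50554827-50581840, Casp1 at chr9:5298517-5307265 and Nlrp3 at chr11:59541568-59566956, all on the plus strand. RefSeq start-site windows (GRCm38.p6, 250 bases before to 50 after the start) matched all 8 members with 11 windows. The windows of the 2 IL-1 cytokine genes are printed because both were lower in DAB in several classes below, and 2 of the 3 windows of the antagonist gene, those that held a motif, because it was higher in DAB in immature monocyte-like cells, where both were lower. Capitals mark matches on either strand to 6 searched motifs.
Il1a, chr2:129309923-129310222, minus strand: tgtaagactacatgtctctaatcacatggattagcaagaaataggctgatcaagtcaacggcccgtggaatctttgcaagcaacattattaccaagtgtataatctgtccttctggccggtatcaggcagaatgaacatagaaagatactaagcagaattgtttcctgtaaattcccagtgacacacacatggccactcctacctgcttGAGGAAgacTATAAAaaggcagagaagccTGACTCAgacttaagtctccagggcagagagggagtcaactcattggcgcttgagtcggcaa
Il1b, chr2:129371090-129371389, minus strand: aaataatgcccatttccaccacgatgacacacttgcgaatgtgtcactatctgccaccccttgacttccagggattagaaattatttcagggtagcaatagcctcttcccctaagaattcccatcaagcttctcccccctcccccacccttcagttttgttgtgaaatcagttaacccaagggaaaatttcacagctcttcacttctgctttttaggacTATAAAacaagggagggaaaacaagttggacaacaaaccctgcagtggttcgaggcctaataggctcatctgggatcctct
Il1rn, upstream start, chr2:24336610-24336909, plus strand: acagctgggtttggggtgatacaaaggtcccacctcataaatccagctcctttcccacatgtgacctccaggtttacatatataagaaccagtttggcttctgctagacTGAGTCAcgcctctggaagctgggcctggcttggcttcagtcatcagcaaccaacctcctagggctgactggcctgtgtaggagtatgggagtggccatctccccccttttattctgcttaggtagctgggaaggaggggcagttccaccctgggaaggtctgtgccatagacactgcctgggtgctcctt
Il1rn, most downstream start, chr2:24345121-24345420, plus strand: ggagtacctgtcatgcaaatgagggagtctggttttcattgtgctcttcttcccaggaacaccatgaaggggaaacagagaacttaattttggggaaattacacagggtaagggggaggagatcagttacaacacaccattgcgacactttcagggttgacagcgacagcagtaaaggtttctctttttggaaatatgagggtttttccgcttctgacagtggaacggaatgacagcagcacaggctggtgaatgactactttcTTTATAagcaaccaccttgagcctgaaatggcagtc

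Both cytokine genes had a TATA box (TATAAA) just before the start, at -32 to -27 in Il1a and at -31 to -26 in Il1b, counted from the start. That motif occurs in 13.6% of all 32851 windows. Il1a also held an AP-1 motif (TGANTCA, 7.81% of windows) at -12 to -6 and a PU.1 motif (GAGGAA, 28.3%) at -41 to -36. The upstream Il1rn window held an AP-1 motif at -141 to -135, and the most downstream one TATAAA at 14 to 19 on the opposite strand, after the start. Among the members, 1 of the 2 Nlrp3 windows held a CARE motif (TGATGNAA, 3.97% of windows) and a match to the NF-kB consensus (8.46%). No window of a member matched the C/EBP letters TTGCNNAA, which 10.8% of all windows hold. A match is a run of letters and says nothing of binding.

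Over all kept cells the 2 cytokine genes were lower in the DAB library and Il18 was higher, whereas the antagonist, the receptors and the inflammasome genes differed less. Levels are UMIs per 1000000 UMIs of the library or class (CPM) with a 95% counting interval, and a ratio is given as log2 of DAB over DMSO. A gene was counted as higher or lower when this log2 ratio was at least 0.5 in size and its 95% counting interval left out 0. By that rule 1 of the 8 members was higher in DAB and 2 were lower, against 13.8% higher, 16.5% lower and 30.3% either way of 16355 genes with at least 20 UMIs. All 8 members passed this minimum. Their median log2 ratio was 0.04, and that of all such genes was -0.02. The intervals cover counting error alone, so they leave out the differences that another culture would show.

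Il1a stood at 14.8 CPM in DMSO (1365 UMIs) and 10.2 in DAB (1421 UMIs), a log2 ratio of -0.54 (-0.65 to -0.43). For Il1b the levels were 52.9 CPM (4867 UMIs) and 31.9 CPM (4451 UMIs), with a log2 ratio of -0.73 (-0.79 to -0.67). When each cell was given equal weight in place of each UMI, both directions turned, to 0.36 for Il1a and 0.10 for Il1b. Under that weighting 2 members were counted as higher and 0 as lower, against 19.0% and 13.9% of 16355 genes. Classes with few UMIs per cell count for more in that mean. Mature PMN-like cells had a median of 3212.5 UMIs in DMSO and 3591 in DAB, against 16944 and 17849 in immature monocyte-like cells. Chemokine-high granulocyte-like cells had medians of 6372.5 and 5408 UMIs, and were 5.49% of DMSO and 16.1% of DAB cells. The part of each class in the turned directions was not tested. After every cell was thinned to 1500 UMIs, leaving out 436 DMSO and 292 DAB cells below that depth, 1.76% of DMSO and 2.12% of DAB cells had an Il1a UMI. The thinned shares for Il1b were 7.50% and 7.01%. The order of the 2 libraries over all cells therefore depended on how cells were weighted, and the class values below carry the comparison.

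**Figure D1:**
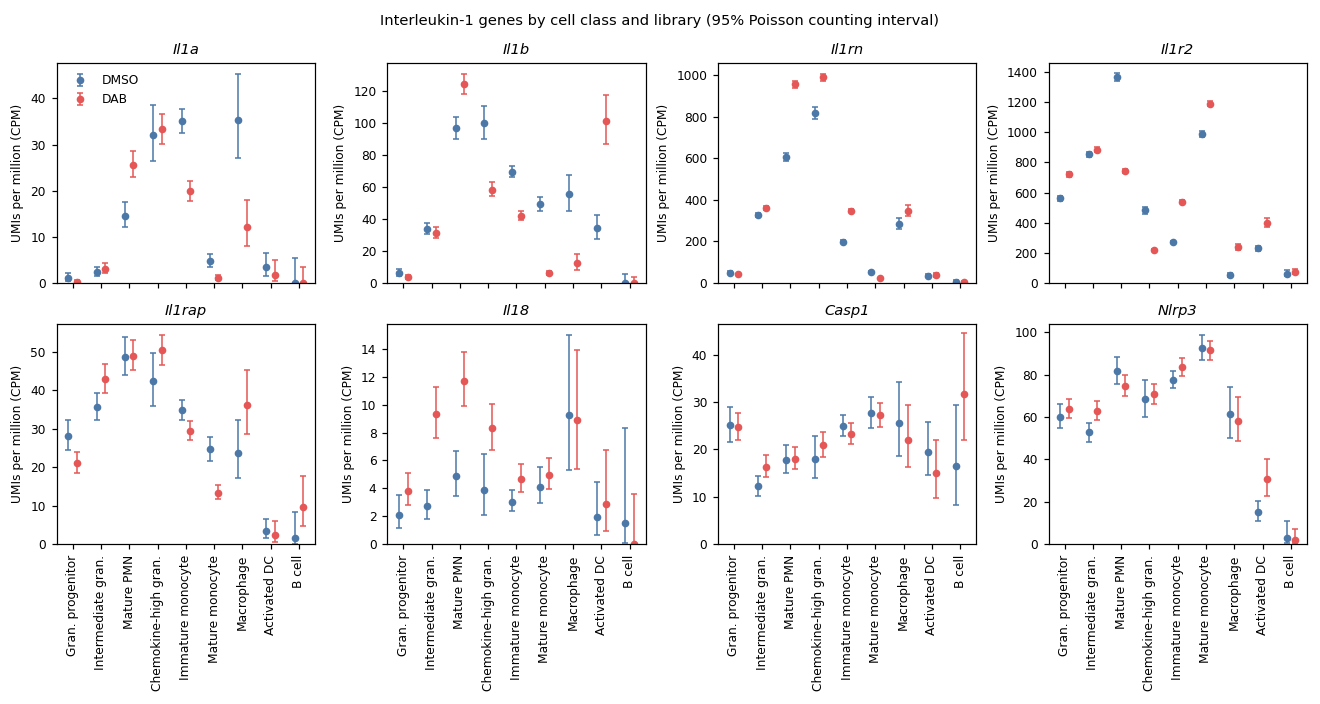
Level of each of the 8 genes in UMIs per 1000000 UMIs (CPM, vertical axis starting at 0) in 9 cell classes (horizontal axis), with DMSO in blue and DAB in red. Bars are 95% Poisson counting intervals of 1 library each. Il1b in mature monocyte-like cells was 49.2 in DMSO and 6.14 in DAB, while the intervals of Casp1 overlapped in every class.

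In DMSO, Il1b was highest in the chemokine-high granulocyte-like cells (100.2 CPM, 90.1 to 111) and the mature PMN-like cells (96.9, 90.1 to 104), whose intervals overlapped. Immature monocyte-like cells followed at 69.7 CPM (66.2 to 73.4), then macrophage-like cells at 55.6 (45.0 to 67.9) and mature monocyte-like cells at 49.2 (45.0 to 53.7), where each neighbour overlapped the next. Activated dendritic cell-like cells (34.5 CPM, 27.7 to 42.4) and intermediate granulocyte-like cells (33.9, 30.5 to 37.6) did not differ beyond their intervals. Granulocyte progenitor-like cells stood at 6.34 CPM (4.62 to 8.48). B cell-like cells had 0 Il1b UMIs of 670210 in DMSO and 0 of 1037450 in DAB, so free Il1b RNA was below 5.50 and 3.56 CPM, the upper 95% bounds.

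Within classes, Il1b was lower in DAB in the monocytic and macrophage-like cells and not in the mature PMN-like cells. The step was largest in mature monocyte-like cells, with 493 UMIs or 49.2 CPM in DMSO and 105 UMIs or 6.14 CPM in DAB (log2 ratio -3.00, -3.32 to -2.70). Thinned shares of these cells with an Il1b UMI were 5.34% in DMSO and 0.358% in DAB. Mature monocyte-like cells had 0 members higher and 4 lower, against 16.6% and 19.5% of 12010 genes. The class II list that names the class had a close sum in the 2 libraries (22197 and 20962 CPM), with 2 of its 7 genes higher in DAB. Summed markers of immature monocytes were 5421 CPM in DMSO and 1713 in DAB, and those of activated dendritic cells 2468 and 398, with 0 of 7 genes of either list higher in DAB and no gene at 0. Their part in the Il1b difference was not tested.

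Macrophage-like cells had 96 Il1b UMIs in DMSO and 27 in DAB, or 55.6 and 12.7 CPM, with a log2 ratio of -2.13 (-2.81 to -1.50). The 5 highest cells held 67.7% of the DMSO and 63.0% of the DAB molecules, and without the 5 highest cells of each library the ratio was -1.94. With equal weight for each cell it was -0.60, for which no interval was computed, and the thinned shares were 5.26% and 5.07%. This class had 2 members higher and 2 lower, against 10.3% and 12.6% of 9024 genes. Its own marker list was lower in DAB (1365 and 391 CPM, 1 of 7 genes higher), and whether the class holds like cells in both libraries was not tested.

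Immature monocyte-like cells held 1442 Il1b UMIs in DMSO, or 69.7 CPM, and 761 in DAB, or 42.1 CPM, a log2 ratio of -0.73 (-0.86 to -0.60). Here 3 members were higher and 2 lower, against 11.4% and 20% of 12547 genes. The list that names the class summed to 12419 CPM in DMSO and 13109 in DAB, with 1 of 7 genes higher in DAB. Whether the class holds like cells in both libraries was not tested. Few cells carried the DAB molecules. The 5 highest cells held 46.5% of them, 1 cell alone having 143, whereas the 5 highest DMSO cells held 16.3%. Without the 5 highest cells of each library the levels were 58.7 and 22.7 CPM and the ratio -1.37 (-1.54 to -1.21). The thinned share of cells with an Il1b UMI was 8.58% in DMSO and 3.33% in DAB. Redrawing the clusters moved the ratio between -2.13 and -0.16, the latter when genes that differed between the libraries were left out of the clustering.

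Chemokine-high granulocyte-like cells had 362 and 719 Il1b UMIs, or 100.2 and 58.5 CPM, with a log2 ratio of -0.78 (-0.96 to -0.59). One member was higher and 2 were lower in this class, against 8.74% and 12.9% of 11056 genes. Leaving members and pathway genes in the clustering brought the ratio to -0.46, and equal weight for each cell to -0.36, both under the limit of 0.5. Granulocyte progenitor-like cells gave 6.34 and 3.80 CPM from 45 UMIs in each library, a log2 ratio of -0.74 (-1.37 to -0.11), with 0 members higher and 1 lower against 16.6% and 19.1% of 11839 genes. Without the alignment of the libraries that ratio was -0.23. The intervals of both levels reached below the CPM bounds that B cell-like cells set for Il1b, and neither thinned share (2.15% and 0.759%) was above background. Before thinning, 17 of 379 DMSO and 16 of 396 DAB cells of this class had an Il1b UMI. B cell-like cells, with fewer UMIs each, had 0 of 136 and 0 of 187. Intermediate granulocyte-like cells gave 33.9 and 31.3 CPM (-0.12, -0.33 to 0.10), and there 1 member was higher and 0 lower against 24.9% and 12.3% of 11323 genes. That class was made up differently in the 2 libraries, with 672 DMSO and 744 DAB cells in cluster E and 813 and 296 in cluster G. Il1b was lower in DAB in cluster E (69.9 and 43.9 CPM, -0.67, -0.90 to -0.44) and low in both libraries in cluster G (7.63 and 8.36 CPM).

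Mature PMN-like cells went the other way for Il1b, from 96.9 CPM (757 UMIs) in DMSO to 125 CPM (1532 UMIs) in DAB (log2 ratio 0.36, 0.24 to 0.49), which stayed under the limit of 0.5. The 3 clusters of this class differed among themselves. Cluster B, led by Csf3r and Fpr1, had 131 CPM in DMSO and 232 in DAB (log2 ratio 0.83, 0.65 to 1.01), and cluster N 90.7 and 124 CPM (0.45, 0.13 to 0.76). Cluster D had 76.4 and 55.8 CPM (-0.45, -0.68 to -0.22). Across the 19 clusters that had 100 or more cells from both libraries and 20 or more Il1b UMIs, it was higher in DAB in 2 and lower in 13. Of all gene and cluster pairs, 13.8% were higher and 13.3% lower.

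Activated dendritic cell-like cells also gave more Il1b in DAB, 34.5 CPM (90 UMIs) and 102 CPM (176 UMIs), a log2 ratio of 1.56 (1.18 to 1.94). One DAB cell held 90 of those 176 molecules. Without the 5 highest cells of each library the levels were 17.6 and 25.0 CPM and the ratio 0.51 (-0.14 to 1.16), so this difference rested on a few cells. In this class 3 members were higher and 0 lower, against 9.74% and 12.6% of 8988 genes.

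Il1a was sparser than Il1b and followed it in the monocytic classes. Immature monocyte-like cells had 724 UMIs or 35.0 CPM in DMSO and 359 UMIs or 19.9 CPM in DAB (log2 ratio -0.82, -1.004 to -0.63). There the 5 highest cells held 12.7% of the DMSO and 38.4% of the DAB molecules. Without the 5 highest cells of each library the ratio was -1.32 (-1.54 to -1.09), and over the alternatives it ran from -1.68 to -0.64. Mature monocyte-like cells had 4.69 and 1.11 CPM (-2.08, -2.93 to -1.28), and macrophage-like cells 35.3 and 12.2 CPM (-1.53, -2.25 to -0.85). In the macrophage-like cells equal weight for each cell gave -0.67, again without an interval of its own, and the thinned shares were 4.61% and 4.35%. Both mature monocyte-like levels lay under the upper bounds that 0 Il1a UMIs set in B cell-like cells (5.50 and 3.56 CPM). By CPM they could therefore not be told from free RNA. B cell-like cells had fewer UMIs, with medians of 4043.5 in DMSO and 4906 in DAB against 19943 and 30266.5. By cell, 34 of 487 DMSO and 15 of 560 DAB mature monocyte-like cells had an Il1a UMI, against 0 of 136 and 0 of 187.

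Mature PMN-like cells again went the other way, with 114 Il1a UMIs or 14.6 CPM in DMSO and 315 UMIs or 25.6 CPM in DAB (log2 ratio 0.81, 0.50 to 1.13). This class had 3 members higher and 1 lower, against 16.7% and 9.84% of 11598 genes. Its own marker list stood at 2422 and 3430 CPM (5 of 8 genes higher in DAB). The immature monocyte list was at 1044 and 2575 CPM (3 of 7 higher), and the intermediate granulocyte list at 8444 and 4570 CPM (2 of 10 higher). Their part in the Il1a, Il1rn and Il1r2 differences of this class was not tested. Without the alignment of the libraries the Il1a ratio there was 0.38. Clusters B (1.17) and N (1.62) of the class were higher in DAB, whereas cluster D had 12.6 and 11.3 CPM (-0.16, -0.71 to 0.40). Chemokine-high granulocyte-like cells stood at 32.1 and 33.3 CPM (0.05, -0.25 to 0.36). Intermediate granulocyte-like cells stayed at 2.44 and 3.05 CPM, and the progenitor-like and dendritic cell-like classes had at most 9 UMIs in a library. B cell-like cells had 0 Il1a UMIs in both libraries.

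The cytokine transcripts were spread differently over the classes in the 2 libraries. Immature monocyte-like cells held 53.0% of all Il1a UMIs in DMSO and 25.3% in DAB, beside 22.5% and 12.9% of the UMIs of all genes. Mature PMN-like and chemokine-high granulocyte-like cells held 8.35% and 8.50% of Il1a UMIs in DMSO and 22.2% and 28.8% in DAB. For Il1b the mature PMN-like share went from 15.6% to 34.4% and the mature monocyte-like share from 10.1% to 2.36%. Mature PMN-like cells held 8.48% and 8.80% of the UMIs of all genes, so their larger Il1b share did not come with a larger share of all molecules. With the cluster make-up of the DAB library and the levels of DMSO, Il1b would have stood at 51.3 CPM (-0.04), and with the DMSO make-up and the DAB levels at 34.3 CPM (-0.62). Clusters were weighted here by their share of UMIs and not of cells. The part of cell make-up in the Il1b difference was not tested.

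**Figure D2:**
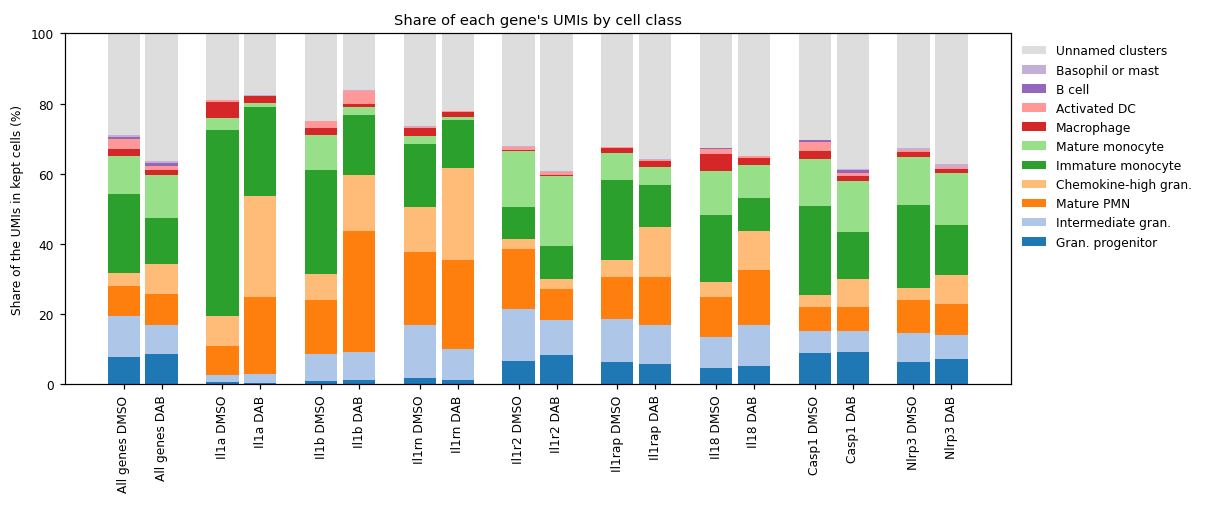
Share of the UMIs in kept cells (vertical axis, percent) held by each cell class for all genes and for each of the 8 genes, 1 stacked bar per library. The immature monocyte-like part of Il1a was 53.0% in DMSO and 25.3% in DAB, and the mature PMN-like part of Il1b 15.6% and 34.4%.

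The 2 cytokine genes were also found in the same cells. Among thinned immature monocyte-like DMSO cells, 23.0% of the 100 cells with an Il1b UMI also had an Il1a UMI (15.2 to 32.5), against 3.002% of the other 1066 (2.06 to 4.21). In DAB the shares were 19.4% of 31 cells (7.45 to 37.5) and 0.777% of 901 (0.313 to 1.59). Mature PMN-like cells showed 1.97% of 203 cells against 1.83% of 1368 in DMSO, and 9.57% of 376 against 2.94% of 1804 in DAB. Intervals of the 2 PMN shares overlapped in DMSO and did not in DAB (6.80 to 13.01 and 2.21 to 3.83).

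Il1rn, the antagonist gene, was found in more cells of the DAB library. It had 248 CPM (22855 UMIs) in DMSO and 332 CPM (46332 UMIs) in DAB over all cells, a log2 ratio of 0.42 (0.40 to 0.44) under the limit of 0.5. With equal weight for each cell it was 0.75, past the limit. The thinned share of cells with an Il1rn UMI was 31.7% in DMSO and 41.1% in DAB. In both libraries the chemokine-high granulocyte-like cells were highest (818 and 990 CPM), followed by mature PMN-like cells (606 and 956), and the intervals of these 2 classes overlapped in DAB and not in DMSO. B cell-like cells had 4.48 and 4.82 CPM from 3 and 5 UMIs.

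Mature PMN-like cells had a log2 ratio of 0.66 (0.61 to 0.71) for Il1rn, and the thinned share of these cells with a UMI was 53.4% in DMSO and 70.0% in DAB. Immature monocyte-like cells had 199 CPM in DMSO and 349 in DAB, a ratio of 0.81 (0.75 to 0.87), with thinned shares of 21.6% and 35.1%. The list that names this class stood at 12419 and 13109 CPM, with 1 of 7 genes higher in DAB. In the DAB cells of this class the chemokine-high list was higher, at 7463 and 15238 CPM (5 of 5 genes higher). So was the mature PMN list, at 728 and 1055 CPM (8 of 8), with no gene of either at 0. The intermediate granulocyte list stood at 2474 and 2801 CPM (6 of 10), and the granulocyte progenitor list was lower, at 70.8 and 22.7 CPM (1 of 5). Over all cells the chemokine-high list was also higher (6222 and 10595 CPM). The part of these lists was not tested. The Il1rn ratio of immature monocyte-like cells was between 0.31 and 0.90 over the alternatives, lowest with coarser clusters. Mature monocyte-like cells were the exception, with 548 UMIs or 54.7 CPM in DMSO and 383 UMIs or 22.4 CPM in DAB (-1.29, -1.48 to -1.10). Intermediate granulocyte-like (0.14), chemokine-high granulocyte-like (0.28), macrophage-like (0.29), granulocyte progenitor-like cells (-0.28) and those like activated dendritic cells (0.14) were under the limit.

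The number of antagonist transcripts per Il1b transcript was higher in DAB in 7 of the 8 myeloid classes when all UMIs were summed, and the intervals of the 2 libraries did not overlap in 5 of them. Over all cells there were 4.70 Il1rn UMIs per Il1b UMI in DMSO (4.55 to 4.84) and 10.4 in DAB (10.1 to 10.7). Macrophage-like cells went from 5.11 (4.10 to 6.43) to 27.4 (18.7 to 41.9), from Il1b UMIs of which 5 cells held 67.7% and 63.0%, and mature monocyte-like cells from 1.11 (0.982 to 1.26) to 3.65 (2.93 to 4.57). Immature monocyte-like cells went from 2.85 (2.69 to 3.03) to 8.28 (7.68 to 8.94), and chemokine-high granulocyte-like cells from 8.16 (7.32 to 9.13) to 16.9 (15.7 to 18.3). Mature PMN-like cells gave 6.25 (5.79 to 6.76) and 7.67 (7.27 to 8.09). Activated dendritic cell-like cells went the other way, from 1.04 (0.774 to 1.41) to 0.392 (0.292 to 0.521), with the 1 cell named above among them. In cells thinned to 1500 UMIs, so that all have the same total, the immature monocyte-like values were 2.70 (2.23 to 3.29) and 7.96 (6.21 to 10.3), still apart. Single cells could still hold many UMIs of a gene, as the highest of these DAB cells had 12 of the 71 Il1b UMIs. Macrophage-like cells then gave 8.50 (4.403 to 18.4) and 8.11 (4.05 to 18.4), and the intervals of the other classes overlapped too. These ratios compare molecules of 2 genes counted in the 5′ assay and not protein.

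**Figure D3:**
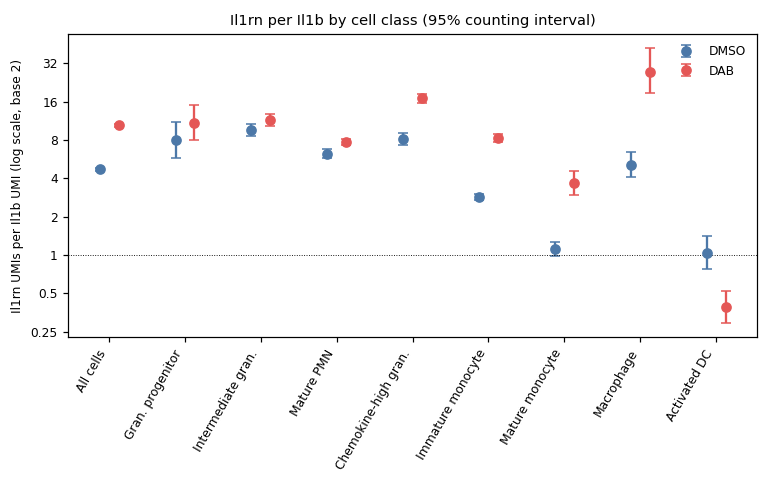
Il1rn UMIs per Il1b UMI (vertical axis, log scale of base 2) over all cells and in 8 myeloid classes, DMSO in blue and DAB in red, with 95% counting intervals. The dotted line marks equal numbers, and activated dendritic cell-like cells, at 1.04 in DMSO and 0.392 in DAB, are the class with a lower DAB value.

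Il1b and Il1rn were found together in the granulocytes too. Of mature PMN-like cells with an Il1b UMI after thinning, 58.1% had an Il1rn UMI in DMSO (51.02 to 65.0) and 82.4% in DAB (78.2 to 86.2), beside 52.7% and 67.4% of the cells without one. In immature monocyte-like cells the shares were 45.0% and 71.0% of cells with an Il1b UMI, beside 19.4% and 33.9% of the others. The share was thus higher beside Il1b in all 4 of these comparisons, with overlapping intervals in the DMSO mature PMN-like cells.

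Il1r2, the decoy receptor gene, was the most abundant member, and its ratio over all cells hid opposite differences within classes. The library levels were 671 CPM (61760 UMIs) in DMSO and 732 CPM (102254 UMIs) in DAB (log2 ratio 0.13, 0.11 to 0.14). Given equal weight for each cell the ratio was -0.43, and thinned shares were 50.6% and 44.3%. In DMSO, mature PMN-like cells were highest at 1365 CPM, followed by mature monocyte-like (989), intermediate granulocyte-like (854), granulocyte progenitor-like (562) and chemokine-high granulocyte-like cells (483). In DAB, mature monocyte-like cells were highest at 1189 CPM, and mature PMN-like cells (742) did not differ from granulocyte progenitor-like cells (720) beyond their intervals.

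Among granulocytes, mature PMN-like cells went from 10665 UMIs in DMSO to 9114 UMIs or 742 CPM in DAB (log2 ratio -0.88, -0.92 to -0.84). The thinned share of them with an Il1r2 UMI was 68.6% and 45.6%. Chemokine-high granulocyte-like cells went from 483 to 219 CPM (-1.14, -1.23 to -1.06) and from 37.8% to 18.5% of cells. As given with Il1b, the markers and clusters of that class differed between the libraries, and their part in the Il1r2 difference was not tested. Intermediate granulocyte-like cells stood at 854 and 884 CPM (0.05), but cluster E of this class had 1113 and 886 CPM (-0.33, -0.38 to -0.28) and cluster G 665 and 881 CPM (0.41, 0.34 to 0.47). Mature PMN-like and chemokine-high granulocyte-like cells thus both had less Il1r2 in DAB.

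Immature monocyte-like cells had more, 273 CPM (5644 UMIs) in DMSO and 539 CPM (9738 UMIs) in DAB (log2 ratio 0.98, 0.93 to 1.03). The thinned share was 24.7% in DMSO and 39.1% in DAB, and coarser clusters gave a ratio of 0.43. As given with Il1rn, the chemokine-high and mature PMN lists were higher in the DAB cells of this class, and the granulocyte progenitor list was lower. Their part in the Il1r2 difference was not tested. Macrophage-like cells had 92 and 503 UMIs, or 53.3 and 236 CPM (2.15, 1.83 to 2.49). Their DMSO level lay within the interval of B cell-like cells (61.2 CPM, 43.9 to 83.0), so by CPM it could not be told from free RNA. The DAB level was above that of B cell-like cells (73.3, 57.7 to 91.7). The thinned DAB share of 15.2% (from 9.67%) was not above the upper bound of B cell-like cells (11.1%). Intermediate granulocyte markers (1631 and 2794 CPM) and mature PMN markers (653 and 1031 CPM) were higher in the DAB macrophage-like cells. The chemokine-high list stood at 13329 and 16825 CPM, and the granulocyte progenitor list at 31.8 and 19.3 CPM (3 of 5 genes higher). Their part was not tested. Activated dendritic cell-like cells gave 229 and 398 CPM (0.79, 0.63 to 0.96), and 0.47 with equal weight for each cell. Mature monocyte-like cells stood at 989 and 1189 CPM (0.27).

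**Figure D4:**
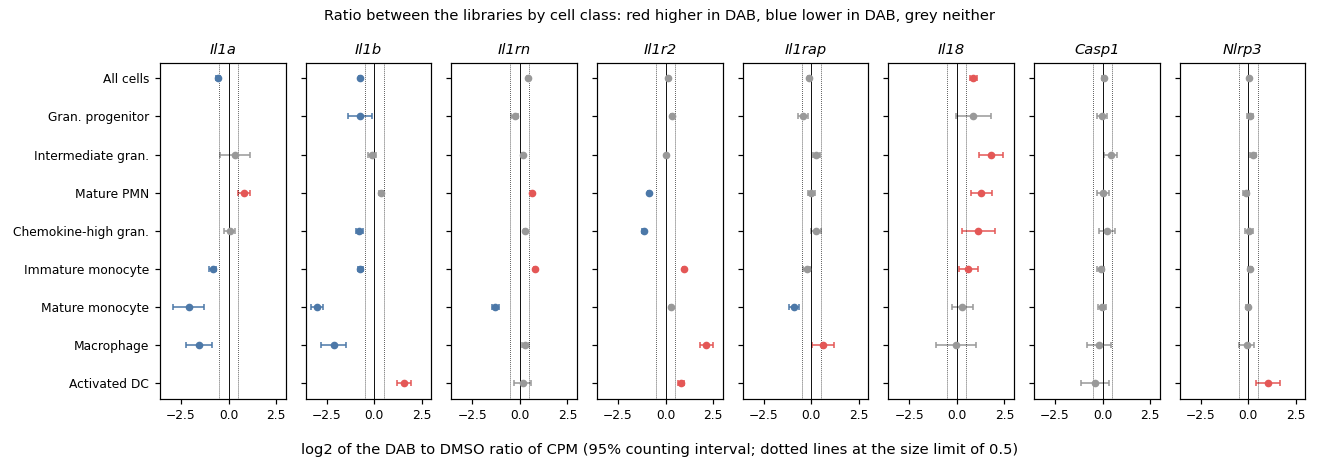
Log2 of the DAB to DMSO ratio of CPM (horizontal axis, dotted lines at the size limit of 0.5) for each gene over all cells and in 8 myeloid classes, with 95% counting intervals. Red marks genes counted as higher in DAB, blue as lower and grey neither. Il1a in granulocyte progenitor-like cells and Il1a, Il1rap and Il18 in activated dendritic cell-like cells are left out for having under 20 UMIs. Il1r2 was lower in mature PMN-like cells (-0.88) and higher in immature monocyte-like cells (0.98).

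Il1rap, the accessory chain gene, was nearly level between the libraries over all cells at 34.3 and 31.5 CPM (-0.12, -0.19 to -0.06). Of 18 clusters with at least 20 Il1rap UMIs, it was higher in DAB in 2 and lower in 2. Of all gene and cluster pairs, 13.8% were higher and 13.3% lower. The ratio ran from -0.89 in the unnamed cluster I to 1.35 in cluster G of the intermediate granulocyte-like class. By class, Il1rap levels ranked as follows. It was highest in mature PMN-like cells (48.6 and 49.0 CPM) and chemokine-high granulocyte-like cells (42.3 and 50.4), whose intervals overlapped in each library. Mature monocyte-like cells had 24.7 CPM in DMSO and 13.4 in DAB (-0.88, -1.15 to -0.62). Macrophage-like cells had 23.7 and 36.2 CPM from 41 and 77 UMIs (0.61, 0.04 to 1.19), and 0.47 when genes that differed between the libraries were left out of the clustering. B cell-like cells had 1 and 10 UMIs. The thinned Il1rap shares of mature monocyte-like cells were 3.90% (from 2.36%) in DMSO and 2.51% (from 1.38%) in DAB. Those of macrophage-like cells were 3.95% (from 1.46%) and 2.90% (from 0.795%). None of these lower bounds was above the upper bounds of B cell-like cells (2.89% and 3.18%), so thinned shares did not separate them from free RNA. Before thinning, 160 of 487 DMSO and 166 of 560 DAB mature monocyte-like cells had an Il1rap UMI. So did 22 of 154 and 48 of 144 macrophage-like cells, and 1 of 136 and 6 of 187 B cell-like cells. The B cell-like cells had fewer UMIs, with medians of 4043.5 and 4906.

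**Figure D5:**
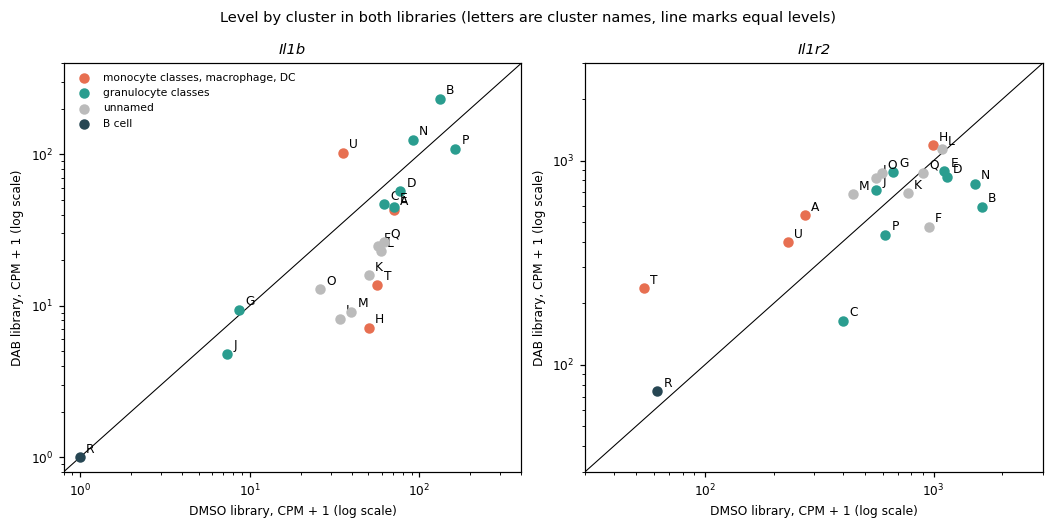
Level of Il1b and Il1r2 in the DAB library (vertical axis, CPM + 1) against the DMSO library (horizontal axis, CPM + 1), both on log scales, in the 20 clusters that had 100 or more cells from both libraries. The line marks equal levels. Il1b of cluster H, the mature monocyte-like cells, lies far below it (49.2 and 6.14 CPM), and Il1r2 of cluster B, of the mature PMN-like class, lies below it while that of cluster T, the macrophage-like cells, lies above.

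Il18 was the one member counted as higher over all cells, with 330 UMIs or 3.58 CPM in DMSO and 910 UMIs or 6.52 CPM in DAB (log2 ratio 0.86, 0.68 to 1.05). The log2 ratio was largest in granulocytes. Mature PMN-like cells had 38 and 144 UMIs, or 4.86 and 11.7 CPM (1.27, 0.74 to 1.82), and intermediate granulocyte-like cells 2.72 and 9.31 CPM (1.78, 1.17 to 2.42). Chemokine-high granulocyte-like cells had 14 and 102 UMIs (1.10, 0.29 to 2.02), and immature monocyte-like cells 3.05 and 4.65 CPM (0.61, 0.12 to 1.10). Mature monocyte-like cells (4.09 and 4.97 CPM) and macrophage-like cells (9.27 and 8.92 CPM) were under the limit. The thinned share of cells with an Il18 UMI never passed 3.29% and was above that of B cell-like cells in 0 of 9 classes, where 0 of 173 thinned DAB B cell-like cells with a UMI allow a share of up to 2.11%. By counts, the DAB mature PMN-like level (9.88 to 13.8 CPM) was above the bound of 3.56 CPM set by 0 UMIs in DAB B cell-like cells. DMSO B cell-like cells had 1 Il18 UMI of 670210, so their bound lies above the one that 0 UMIs set for Il1b in that library. The DMSO levels of the classes counted as higher lay under that bound, so by CPM they could not be told from free RNA.

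The inflammasome genes of the list were level over all cells. Casp1 had 22.1 CPM (2031 UMIs) in DMSO and 22.9 CPM (3193 UMIs) in DAB (log2 ratio 0.05, -0.03 to 0.13). It was counted as different in 0 of 20 clusters, beside 27.1% of all gene and cluster pairs. B cell-like cells had 16.4 and 31.8 CPM of Casp1, as much as the myeloid classes. Being near the levels of the whole libraries, these values left Casp1 without a usable gauge of free RNA. Nlrp3 had 74.1 CPM (6826 UMIs) and 75.6 CPM (10555 UMIs), a log2 ratio of 0.03 (-0.02 to 0.07), and it was higher in DAB in 2 of 19 clusters and lower in 0, among them cluster G (36.5 and 53.4 CPM, 0.55, 0.27 to 0.82). Its levels ran from 52.7 CPM in intermediate granulocyte-like to 92.8 in mature monocyte-like DMSO cells, with activated dendritic cell-like cells below all of these at 14.9. In the latter it was higher in DAB at 30.6 CPM, from 39 and 53 UMIs (1.03, 0.41 to 1.67), and 0.43 (-0.59 to 1.44) without the 5 highest cells. B cell-like cells had 2 Nlrp3 UMIs in each library.

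Over the 9 named classes, B cell-like cells included, 25 of the 72 pairs of a member and a class were counted, 13 higher and 12 lower in DAB. Of the 72 pairs, 62 had at least 20 UMIs, and the 25 make 40.3% of those. Of all gene and class pairs with that many, 14.6% were higher and 14.6% lower, or 29.2% in either direction. Of the 8 members, 5 were higher in 1 named class and lower in another, against 13.4% of 12636 genes with at least 20 UMIs in 2 or more classes. That share takes in genes over the minimum in as few as 2 classes, whereas most members passed it in most classes, so the sets are unlike. In B cell-like cells 0 members were counted, of 2 over the minimum, against 15.1% higher and 7.94% lower. The unnamed clusters together had 1 member higher, Il18, and 2 lower, Il1a and Il1b, against 12.4% and 17.2%. Their Il1b level was 45.6 CPM in DMSO and 14.2 in DAB (-1.68, -1.82 to -1.55). Set against B cell-like cells, the 8 myeloid classes and the basophil or mast cell-like cells gave 144 combinations of member, class and library. In thinned cells 61 of them were above the B cell-like share, beside 5.93% of such combinations over all genes with at least 20 UMIs. Il1r2 was above it in 6 classes in DMSO and 8 in DAB, Il1rn in 7 and 6, Nlrp3 in 6 and 7, Il1b in 5 and 4, Il1rap in 5 and 4, Il1a in 1 and 2. Il18 and Casp1 were above it in 0 classes, where for Casp1 the B cell-like share was not a usable gauge of free RNA.

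The wider pathway was represented by 62 further genes in 7 lists, of which 61 were matched in the data and 59 had at least 20 UMIs. Over all cells 8 were higher in DAB and 11 lower, against 13.8% and 16.5% of all genes, so the counts were near the background, and their median log2 ratio was -0.12. The cytokine relatives gave 0 counted of 3 genes over the minimum, and the receptors and binding proteins 1 higher of 7, Il1rl1 at 3.86 CPM in DAB (0.76). Receptor signalling had 1 lower of 12 genes. That gene was Traf6, the ubiquitin ligase that relays the IL-1 receptor signal, at 47.9 CPM in DMSO and 24.1 in DAB (-0.99, -1.05 to -0.92). Its ratio lay between -1.30 and -0.15 over the 8 myeloid classes, and was past -0.5 in 6 of them.

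Inflammasome sensors and partners had 2 genes higher (Nlrp1a and Mefv) and 4 lower (Nlrc4, Naip6, Nlrp12 and P2rx7) of 14, each under 20 CPM in both libraries. The effectors had 1 lower of 5, Casp4 at 15.8 and 10.7 CPM (-0.57). Of 6 protease genes whose products act on IL-1 family proteins, 2 were higher and 4 lower. The neutrophil serine protease genes Elane (97.0 and 55.3 CPM, -0.81) and Prtn3 (212 and 119 CPM, -0.83) were lower, and Ctsg was higher (21.7 and 42.8 CPM, 0.98). These 3 genes are among the markers that name the granulocyte progenitor-like class. In its cells, Elane had 791 and 250 CPM, Prtn3 1198 and 573 CPM, and Ctsg 133 and 244 CPM. Ctss, a lysosomal cysteine protease gene, was lower over all cells (358 and 196 CPM, -0.86), as was the calpain gene Capn1 (-0.76), while Capn2 was higher (0.77).

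NF-kB target genes of myeloid cells, a group that Il1b belongs to as well, had 3 higher and 1 lower of 12. Cxcl2, a neutrophil attractant gene, had 136 CPM in DMSO and 557 in DAB (2.04, 2.01 to 2.06), and its log2 ratio was at least 0.92 in each of the 8 myeloid classes. In immature monocyte-like cells Cxcl2 was 157 and 689 CPM while Il1b was 69.7 and 42.1. Ccl4, another chemokine gene, was higher over all cells (142 and 245 CPM, 0.78) but had 89.4 and 32.8 CPM in mature monocyte-like cells (-1.45). Il6, whose protein was itself in the medium of both cultures, was at 3.14 and 7.60 CPM (1.28). Tnfaip3, which encodes an inhibitor of NF-kB signalling, was lower (21.3 and 11.4 CPM, -0.90). Cxcl2 and Ccl4 are also markers of the chemokine-high class. The list thus held genes that went with Il1b in these classes and genes that went against it.

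Levels over 22 clusters of the DMSO library gave the genes most like each member at 20 CPM or more, and most like Il18, among 8834 genes. The values are Pearson correlations of log2(CPM + 10) that share libraries and depth. Il1a was under 20 CPM and was left out. Il18, sparser still with 330 UMIs in DMSO, was included by name, so its correlations rest on few molecules. Most like Il1b were Olr1 (0.92), a scavenger receptor gene, Pla2g7 (0.91) and Gpr180 (0.88), with 0.67, 0.60 and 0.40 over the same clusters in DAB. Bst1 (0.96), Atp6v1e1 (0.96) and 2310009A05Rik (0.95) were most like Il1rn, with 0.94, 0.96 and 0.74 in DAB. Ifngr1 (0.92), Bin2 (0.91) and Sft2d2 (0.88) were most like Il1r2, with 0.44, 0.83 and 0.36 in DAB. For Il1rap the leading gene was Dcun1d3 (0.95), for Nlrp3 Plec (0.93), for Casp1 Ctss (0.89) and for Il18 Gm40304 (0.78). Among the members, Il1b went with Il1rn at 0.81 in DMSO and 0.72 in DAB, with Il1a at 0.75 and 0.77, and with Il1r2 at 0.49 and 0.10.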

How the data were processed

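Per the paper's methods and the file headers, the deposited counts are unique molecular identifiers (UMIs) of each gene in each barcode, which the authors obtained from Cell Ranger 7.0.0 and mouse build mm10 (10x 5′ assay); the submitters' processing notes also list Seurat 4.3.0 and R 4.1.2. Both libraries, 1 per condition, were used: 9855 DMSO and 11631 DAB barcodes with 106792967 and 165506902 UMIs. Barcodes over 10% mitochondrial UMIs (55 and 89) and those with the highest doublet scores (768 and 1066, at 0.8% per 1000 cells) were removed. Cells were clustered on 40 components of 3000 variable genes, without the 8 members and the pathway genes, after regressing out cell cycle and mitochondrial scores and aligning the libraries by mutual nearest neighbours, with Leiden resolution 0.9 (leidenalg 0.10.2, igraph 0.11.9, scikit-learn 1.9.0, scipy 1.17.1, numpy 2.4.6). A class name needed 3 markers raised at least 2-fold, and more of its markers among the 10 leading genes of the cluster than any other class had. The intermediate, mature PMN and chemokine-high granulocyte names also needed S100a8 or Csf3r to be raised. UMIs were summed per class and library. Levels have exact Poisson, ratios exact conditional and shares exact binomial (Clopper-Pearson) 95% intervals, which cover counting error alone, since molecules of 1 cell are not independent. Ratios with equal weight for each cell had no interval of their own. Their counts used the interval of summed UMIs, shifted to the new ratio. With 1 library per condition no test was possible. The ratio code was tested on simulated data.

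The members and lists were chosen with earlier results of these data known. Named beyond the 8 members were, in each pathway list, up to 4 counted genes with 20 CPM in a library and the largest ratios, and for each member at 20 CPM, and Il18, the 3 genes with the highest correlation over clusters. Il1rl1, Nlrp1a, Mefv, Nlrc4, Naip6, Nlrp12, P2rx7, Casp4, Capn1, Capn2 and Il6 fall outside that rule and were named after their values were seen. The alternatives covered filters, doublets, scaling, weighting of cells, clustering, thinning and the limits of the count. Leaving out the 5 highest cells, the ratio of Il1rn to Il1b in thinned cells and a stricter naming of clusters were added after seeing the data.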

Additional observations from a re-analysis of the deposited data

Results flagged for a closer look

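Of the 8 members, 5 differed in opposite directions between cell classes, against 13.4% of 12636 genes with at least 20 UMIs in 2 or more classes. That share takes in genes over the minimum in only 2 classes, whereas the members had 62 of 72 pairs over it, so the sets are unlike. The gaps between log2 ratios of DAB over DMSO in these 5 members are given as values. Differences between classes were not tested, since each condition was 1 library. Il1b had the widest gap, 4.56 on the log2 scale between activated dendritic cell-like cells (1.56) and mature monocyte-like cells (-3.00). However, 1 DAB cell held 90 of the 176 dendritic cell-like UMIs, and without the 5 highest cells of each library that ratio was 0.51 (-0.14 to 1.16). Il1r2 had a gap of 3.29 between macrophage-like cells (2.15) and chemokine-high granulocyte-like cells (-1.14). By CPM the DMSO level of the macrophage-like cells could not be told from free RNA. Il1a had a gap of 2.89 between mature PMN-like cells (0.81) and mature monocyte-like cells (-2.08), where neither mature monocyte-like CPM was above the B cell-like bound. Il1rn had a gap of 2.10 between immature monocyte-like (0.81) and mature monocyte-like cells (-1.29). For Il1rap the gap was 1.49 between macrophage-like (0.61) and mature monocyte-like cells (-0.88). No thinned share of either class was above the B cell-like background, although before thinning larger shares of both classes than of B cell-like cells had a UMI.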

How the results depend on the processing

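Of 28 single-gene ratios counted as higher or lower, 26 kept their direction under every alternative run. The other 2 were the library-wide ratios of Il1a and Il1b, which turned to 0.36 and 0.10 when each cell weighed the same. That weighting counted 2 members as higher and 0 as lower, against 19.0% and 13.9% of all genes. With a log2 limit of 1 in place of 0.5, 0 of 8 members and 4 pathway genes were counted, against 3 and 19. The share of all genes was computed only at the limit of 0.5 (30.3%), so the counts at 1 have no background. Without thinning, 105 of 144 combinations of member, class and library were above the B cell-like share, against 61 with it. The share over all genes, 5.93%, was computed with thinning only. The number of member and class pairs counted stayed between 21 of 64 and 29 of 72 (25 of 72 as reported). Of pairs with at least 20 UMIs, 37.1% to 49.1% were counted (40.3% as reported). Il1b in immature monocyte-like cells was the ratio that depended most on how clusters were drawn, from -2.13 to -0.16. The cause was not tested. Scaling by the median of ratios shifted every log2 ratio over all cells by 0.02. No paired analysis was possible because each condition was 1 library. Genes below 20 UMIs in a class, such as Il1a in dendritic cell-like cells, were too sparse to compare, and a second culture per condition would be needed to set any difference against its spread.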
